A study of Homo sapiens with 12 samples.

Results

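DNA replication and S-phase genes, 50 in all, were followed in RT4 cells through an ITGB4 overexpression experiment and a cisplatin resistance experiment. The genes were taken by name from a list of replication licensing, fork and nucleotide supply genes and matched to symbols by Ensembl identifier. All 50 were found among the 62803 gene identifiers of both count tables. They fall into 9 roles: 11 genes of origin recognition and licensing, 6 of helicase activation, 7 of the sliding clamp and its loaders, 9 polymerase and primase subunits, 3 single-strand binding subunits, 3 genes of Okazaki fragment and RNA primer processing, 5 of nucleotide supply, 4 of chromatin assembly and DNA methylation, and 2 of fork protection. Of the 50, 49 had enough counts to be tested in both experiments, and RNASEH2A, a subunit of RNase H2, had not.

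Origins are prepared in G1, when the origin recognition complex, CDC6 and CDT1 load the ring of MCM2 to MCM7 onto origins, a step called licensing that geminin (GMNN) blocks by binding CDT1. In S phase CDC45 and the GINS complex join the ring to form the active helicase, and polymerases, the PCNA clamp and its RFC loader copy both strands from deoxynucleotides made by ribonucleotide reductase and its partners. Most of these genes are known targets of E2F transcription factors, which the retinoblastoma protein holds in check, and cisplatin crosslinks DNA in the path of the fork.

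RT4 is an established human bladder cancer line, so each group stands for this line alone. In the first experiment, RT4 cells that received a Flag-ITGB4 plasmid (ITGB4 is an integrin beta subunit of hemidesmosomes) were compared with cells that received the control named Flag_EV, read here as empty vector, with 3 libraries each. In the second, 3 libraries of a resistant line, titled RT4R and labelled with cisplatin treatment, were compared with 3 parental RT4 libraries labelled with PBS treatment, and all 6 carry the genotype WT. Acquired resistance and a response to the cisplatin treatment itself therefore cannot be told apart in this comparison. No dose or duration of cisplatin and no time after transfection is given, the resistant line is a single line, and the medium is McCoy's 5A for the first experiment and MEM for the second, so each experiment was read against its own controls. The parental columns were assigned by inference and, having no sample of their own, are lettered a, b and c here. All 6 titles of the first experiment name ITGB4, although a group label has ITGB5 for replicate 2 and ITGB6 for replicate 3 of both groups. ITGB4 itself stood at 1485, 1379 and 1416 CPM in the plasmid libraries, against 858, 879 and 871 CPM in the vector libraries. It was also higher in the resistant libraries, at 848, 831 and 832 CPM, against 602, 598 and 600 CPM in the parental libraries. The log2 fold changes were 0.71 and 0.48.

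Libraries held 22701466 to 33352045 counts in the first experiment and 31824582 to 38199946 in the second. Levels are CPM, counts scaled to a common library size with TMM factors. A change is called when the p of edgeR's quasi-likelihood test, adjusted by Benjamini-Hochberg across every gene tested, is under 0.05. The ± after a log2 fold change approximates its standard error. Nothing says that the replicates came from separate cultures, so the p-values reflect the spread among these libraries alone, and that spread may be technical. Summed over 14 genes, urothelial markers stood between 4899 and 9214 CPM per library. Of the 14, 13 had enough counts to be tested in each experiment. They moved both ways, from -0.94 to 1.42 on the log2 scale with the plasmid and from -1.29 to 1.62 in the resistant line. The 6 leukocyte markers together stayed between 0.0696 and 1.12 CPM and 4 endothelial markers between 0.683 and 2.51 CPM. The 8 fibroblast markers summed to 24.5 to 26.1 CPM in plasmid libraries, against 48.3 to 52.3 CPM in vector libraries, and to 4.43 to 5.73 CPM in resistant libraries, against 11.5 to 12.02 CPM in parental libraries. COL3A1 and COL1A1 made up nearly all of this sum while THY1 was at 0 in every library. Of the 8, 2 had enough counts to be tested, and in each experiment 1 was called higher and 1 lower. Their log2 fold changes were 0.77 and -1.34 with the plasmid and 2.68 and -1.32 in the resistant line. The part of these markers in the results was not tested.

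The transcripts rose nearly throughout the machinery in cells given the ITGB4 plasmid. Of 49 genes tested, 46 were called (72.2% of all genes tested), of which 44 were higher (36.5% of all 16950 genes tested were called higher) and 2 were lower (35.7% of all genes), GMNN and DUT. RFC4, TYMS and TIMELESS were not called. The median log2 fold change of the 49 was 0.63, against 0.00 over all genes tested. By the test against a change of 1.5-fold (edgeR's glmTreat), 21 were higher, where 11.1% of all genes were. All 3 plasmid libraries lay above all 3 vector libraries for 45 of the 49 genes (37.4% of all genes) and below them for 2 (37.1% of all genes). Summed over all 50 genes, the level was 3375 to 3443 CPM in the plasmid libraries, against 2153 to 2179 CPM in the vector libraries. These are bulk libraries, in which a larger share of cells in S phase and more RNA of these genes per cell cannot be told apart.

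The resistant line showed no such common direction. Of 49 genes tested, 19 were higher (26.8% of all 16875 genes tested) and 14 lower (27.7% of all genes), 16 were not called, and the median log2 fold change was 0.01, against 0.02 over all genes. The 8 genes past 1.5-fold by glmTreat were all higher and were MCM6, MCM5, DUT, TYMS, LIG1, GINS2, POLD2 and PCNA. By that rule 6.17% of all genes were higher and 6.31% lower. The libraries of the groups did not overlap for 21 genes that were higher in the resistant line (30.3% of all genes) and 16 that were lower (30.5% of all genes). Groups without overlap were thus common among all genes in both experiments, and counts by role below are to be read beside these shares. With library sizes alone in place of TMM the split was 23 higher and 5 lower, and the medians moved to 0.17 for the 49 genes and 0.18 for all genes. ORC1, ORC6, GMNN, GINS1 and POLD3 were the 5 lower genes under both scalings.

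**Figure D1:**
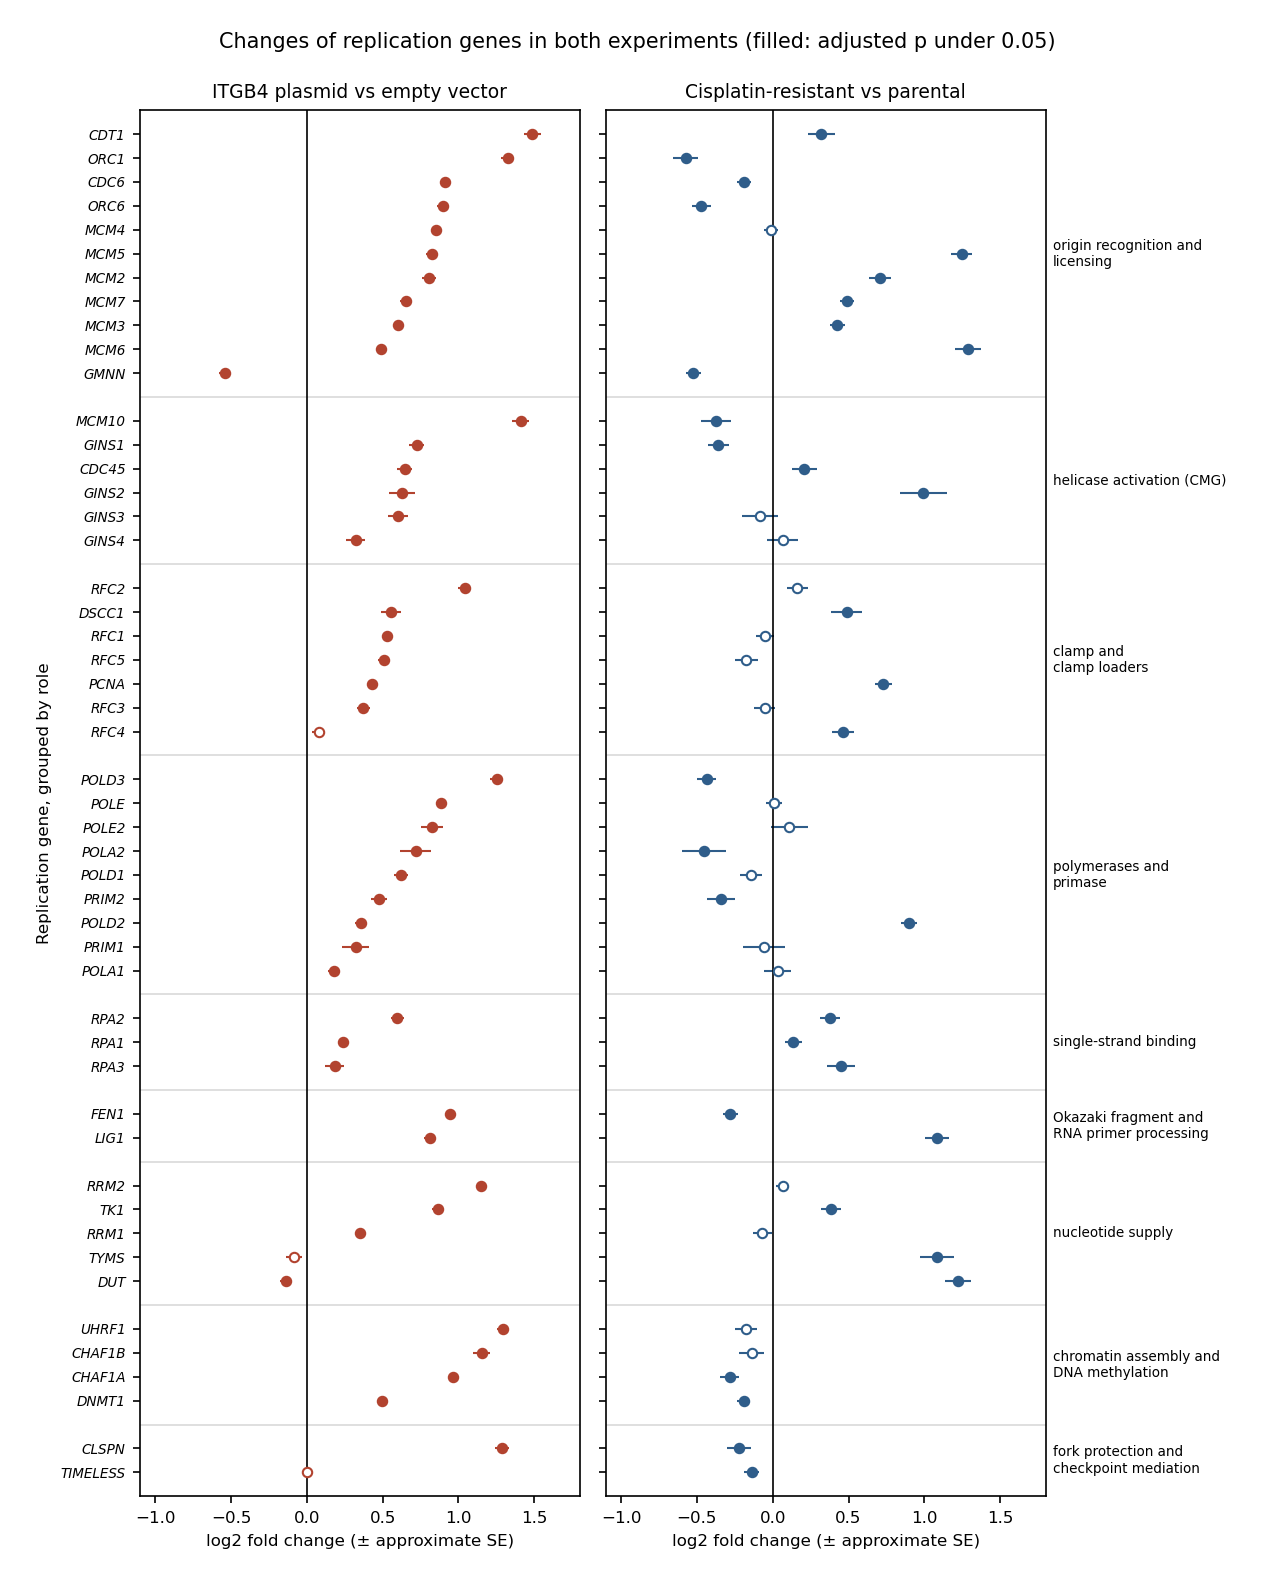
Log2 fold change of the 49 tested replication genes, by role, with the approximate standard error as bars, in plasmid over vector cells (left) and in resistant over parental cells (right). Filled points have an adjusted p under 0.05 and open points do not. The left panel runs from -0.54 for GMNN to 1.49 for CDT1 with 44 genes called higher, while the right panel has 19 called higher and 14 called lower.

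Promoters of genes with the largest called rises are shown because members that moved together can be compared by the letters at their start. These genes were CDT1, MCM10 and ORC1 with the plasmid and MCM6, MCM5 and DUT in the resistant line, of which MCM5 is named only. Each sequence runs from 250 bases before to 50 bases after the RefSeq start on the strand of the gene (RefSeq, GRCh38.p14), and capitals mark matches to an E2F-type word, TTTCCCGC, TTTCGCGC, TTTGCCGC or TTTGGCGC, searched on both strands.
CDT1, chr16:88803539-88803838, plus strand: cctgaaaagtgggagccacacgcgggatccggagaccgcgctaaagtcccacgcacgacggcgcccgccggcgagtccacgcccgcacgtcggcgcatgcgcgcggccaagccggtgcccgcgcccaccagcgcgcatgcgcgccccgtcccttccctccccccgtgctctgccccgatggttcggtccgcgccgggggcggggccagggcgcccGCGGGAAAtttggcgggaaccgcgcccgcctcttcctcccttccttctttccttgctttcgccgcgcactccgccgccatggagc
MCM10, chr10:13161308-13161607, plus strand: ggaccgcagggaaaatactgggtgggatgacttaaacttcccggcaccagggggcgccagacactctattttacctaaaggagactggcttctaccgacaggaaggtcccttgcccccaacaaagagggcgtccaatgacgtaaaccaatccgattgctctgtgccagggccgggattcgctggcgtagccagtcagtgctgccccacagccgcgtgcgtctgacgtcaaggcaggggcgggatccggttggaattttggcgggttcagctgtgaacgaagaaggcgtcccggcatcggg
ORC1, chr1:52404374-52404673, minus strand: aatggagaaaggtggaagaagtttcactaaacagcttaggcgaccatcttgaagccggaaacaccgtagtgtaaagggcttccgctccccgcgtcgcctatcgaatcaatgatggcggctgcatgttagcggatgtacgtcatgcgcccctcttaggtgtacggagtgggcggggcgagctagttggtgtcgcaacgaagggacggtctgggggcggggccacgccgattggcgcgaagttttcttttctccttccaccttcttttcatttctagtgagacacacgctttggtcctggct
MCM6, chr2:135876394-135876693, minus strand: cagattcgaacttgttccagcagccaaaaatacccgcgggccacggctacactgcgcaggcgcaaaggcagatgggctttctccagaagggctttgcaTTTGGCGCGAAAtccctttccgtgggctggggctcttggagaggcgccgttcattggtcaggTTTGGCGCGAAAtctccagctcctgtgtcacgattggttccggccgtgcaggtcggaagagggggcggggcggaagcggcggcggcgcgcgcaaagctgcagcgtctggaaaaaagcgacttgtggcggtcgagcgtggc
DUT, chr15:48330845-48331144, plus strand, first of 4 listed starts: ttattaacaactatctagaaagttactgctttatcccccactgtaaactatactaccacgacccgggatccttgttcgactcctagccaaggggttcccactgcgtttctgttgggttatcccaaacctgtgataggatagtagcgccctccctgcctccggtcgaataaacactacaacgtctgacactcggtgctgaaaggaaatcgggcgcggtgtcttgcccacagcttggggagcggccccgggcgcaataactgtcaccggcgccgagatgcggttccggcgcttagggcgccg
CDT1 holds 1 match, whose first base lies at -35 from the start. MCM6 holds 4 matches at -152, -148, -90 and -86, which overlap in pairs, 1 on each strand. The windows printed for MCM10, ORC1 and DUT hold none of the 4 words, which says only that these letters are not in these windows. Another listed start of DUT does hold an E2F-type word, so DUT is counted below among the genes with one.

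Promoters were listed for 43 of the 50 genes. An E2F-type word stood in at least 1 window of 22 of them, or 51.2%, and of 3.99% of all 27305 genes listed. The CCAAT box stood in 27 of the 43, or 62.8%, and in 39.7% of all genes, and the TTTGAA word of the CHR element, known from genes of the later cell cycle, in 2 of the 43, RRM1 and DUT, or 4.65%, and in 18.2% of all genes. Of the 22 genes with an E2F-type word, 19 were higher and 2 lower with the plasmid, and 10 were higher and 6 lower in the resistant line. Of the 20 tested genes without one, 18 were higher and 2 not called with the plasmid, and 5 were higher and 7 lower in the resistant line. Over all genes tested, 36.5% were higher and 35.7% lower with the plasmid, and 26.8% higher and 27.7% lower in the resistant line. In the resistant line the 6 of 22 lower with the word and the 5 of 20 higher without it were near those shares. The 10 of 22 higher with the word and the 7 of 20 lower without it were above them, and this was not tested. A match is a description of the sequence and not evidence of binding.

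Among the licensing genes, CDT1 rose most with the plasmid and its inhibitor GMNN fell. CDT1 (GRCh38 chromosome 16, 88803213 to 88809258, plus strand), the factor that brings the helicase ring to origins, had 35.1, 34.5 and 33.7 CPM in the plasmid libraries, against 12.02, 11.5 and 13.1 CPM in the vector libraries. The groups were far apart, and the log2 fold change was 1.49 ± 0.055 (adjusted p = 2.26e-13). GMNN (chromosome 6, 24774931 to 24786099, plus strand), whose protein geminin binds CDT1 and prevents relicensing, had 48.1, 48.7 and 50.1 CPM in the plasmid libraries, against 72.3, 68.4 and 73.6 CPM in the vector libraries. Every plasmid library lay below every vector library, with a log2 fold change of -0.54 ± 0.037 (adjusted p = 8.96e-10). The log2 ratio of CDT1 to GMNN was therefore -0.45, -0.50 and -0.57 in the plasmid libraries, against -2.59, -2.57 and -2.49 in the vector libraries, a difference of 2.04.

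GMNN also fell in the resistant line, and CDT1 rose by less (difference of the log2 changes -1.15 ± 0.11, adjusted p = 9.5e-09). GMNN had 64.1, 63.9 and 60.0 CPM in the resistant libraries, against 87.7, 92.99 and 89.5 CPM in the parental libraries, again without overlap (log2 fold change -0.52 ± 0.051, adjusted p = 1.18e-07). CDT1 had 24.5, 22.5 and 21.6 CPM in the resistant libraries, against 17.4, 17.0 and 20.4 CPM in the parental libraries, where the lowest resistant library stood just above the highest parental one. Its log2 fold change was 0.32 ± 0.088 (adjusted p = 0.00527). The CDT1 to GMNN log2 ratio lay between -1.51 and -1.39 in the resistant libraries, against -2.45 to -2.13 in the parental libraries, a difference of 0.85. Per kilobase of exon, GMNN was 11th of the 50 genes in plasmid cells, against 2nd in vector cells, and 9th in resistant cells, against 2nd in parental cells.

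ORC1, ORC6 and CDC6, which mark origins and start the loading of the ring, rose with the plasmid and fell in the resistant line. ORC1, an ATPase subunit of the origin recognition complex, had 45.1, 44.4 and 44.4 CPM in the plasmid libraries, against 18.1, 17.7 and 17.7 CPM in the vector libraries. It had 17.1, 15.6 and 14.8 CPM in the resistant libraries, against 24.0, 23.2 and 23.4 CPM in the parental libraries. The groups did not overlap in either experiment, and the log2 fold changes were 1.32 ± 0.042 with the plasmid (adjusted p = 2.81e-14) and -0.57 ± 0.081 in the resistant line (adjusted p = 1.06e-05), the largest fall of the 49 genes there. ORC6, the smallest subunit of the complex, rose 1.87-fold to 48.5 ± 1.06 CPM in the plasmid libraries, against 26.0 ± 0.570 CPM in the vector libraries (SD, n = 3 each). It had 36.3, 34.2 and 34.0 CPM in the resistant libraries, against 51.0, 45.8 and 48.2 CPM in the parental libraries, a log2 fold change of -0.47 ± 0.063 (adjusted p = 5.83e-06). CDC6, the ATPase that joins the complex to load the ring, had 125, 123 and 124 CPM in the plasmid libraries, against 64.9, 65.6 and 67.0 CPM in the vector libraries, and its log2 fold change was 0.91 ± 0.030 (adjusted p = 3.86e-14). In the other experiment it had 91.6, 95.3 and 98.5 CPM in the resistant libraries, against 108, 109 and 108 CPM in the parental libraries, a small separation without overlap (log2 fold change -0.19 ± 0.046, adjusted p = 0.00213) that was not called with library sizes alone (adjusted p = 0.679).

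MCM2 to MCM7, the 6 subunits of the helicase ring, all rose with the plasmid, by 0.49 to 0.85 on the log2 scale. Of all genes, 36.5% were called higher. MCM4 rose most of them, with 217, 227 and 223 CPM in the plasmid libraries, against 126, 125 and 119 CPM in the vector libraries (adjusted p = 1.07e-13). MCM2 had 77.3, 69.3 and 68.5 CPM in the plasmid libraries, against 41.3, 41.9 and 39.7 CPM in the vector libraries, and MCM5 had 58.2, 54.9 and 54.5 CPM in the plasmid libraries, against 32.1, 31.9 and 30.7 CPM in the vector libraries. No library of either group overlapped the other for these genes. MCM7 had 160.1, 147 and 153 CPM in the plasmid libraries, against 93.1, 102 and 96.5 CPM in the vector libraries. MCM3 had 129.8, 123 and 122 CPM in the plasmid libraries, against 81.1, 81.9 and 83.8 CPM in the vector libraries. MCM6, the least changed of the ring, had 65.7, 65.1 and 66.7 CPM in the plasmid libraries, against 46.9, 46.7 and 47.4 CPM in the vector libraries (log2 fold change 0.49 ± 0.033, adjusted p = 8.25e-10). The sum over the ring was 685 to 708 CPM in the plasmid libraries, against 417 to 430 CPM in the vector libraries.

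Of the 6 ring subunits 5 rose in the resistant line, where 26.8% of all genes were called higher, and MCM4 was not called. The size of the change differed widely between them. MCM6 had 41.3, 46.0 and 38.6 CPM in the resistant libraries, against 18.1, 18.1 and 15.4 CPM in the parental libraries, the largest rise of all 49 genes (2.44-fold, log2 fold change 1.29 ± 0.084, adjusted p = 7.58e-10). MCM5 had 39.0, 39.6 and 36.7 CPM in the resistant libraries, against 16.8, 16.1 and 15.7 CPM in the parental libraries, a rise of 1.25 ± 0.072 on the log2 scale (adjusted p = 1.37e-10). Both stood far above every parental library. MCM2 had 39.1, 38.7 and 42.2 CPM in the resistant libraries, against 24.0, 23.1 and 26.3 CPM in the parental libraries, a rise of 0.71 ± 0.071 (adjusted p = 1.94e-07). MCM7 had 156, 156 and 161 CPM in the resistant libraries, against 114, 108 and 114 CPM in the parental libraries, a rise of 0.49 ± 0.044. MCM3 had 97.9, 97.4 and 98.0 CPM in the resistant libraries, against 77.2, 70.8 and 70.3 CPM in the parental libraries, a rise of 0.43 ± 0.050. The groups did not overlap for these 3 subunits either. MCM4 had 113, 111 and 111 CPM in the resistant libraries, against 109.8, 113 and 116 CPM in the parental libraries, overlapping groups with a log2 fold change of -0.01 ± 0.044 (adjusted p = 0.83). With library sizes alone MCM4 was called higher as well, at 0.15.

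**Figure D2:**
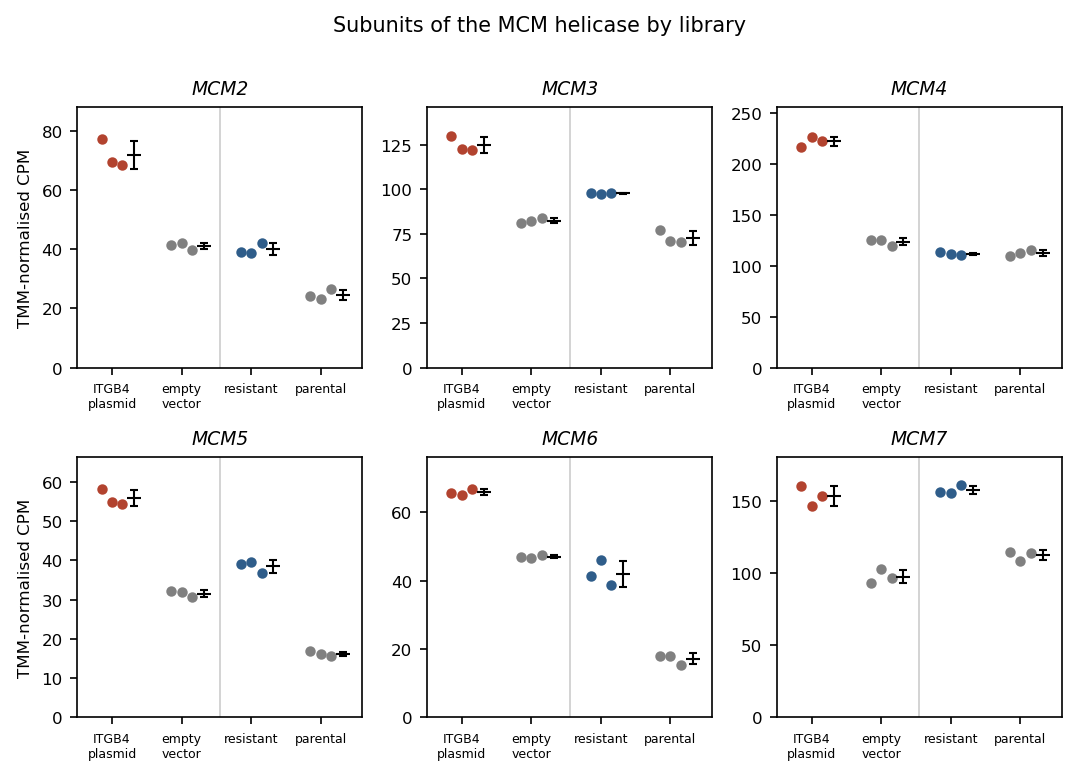
TMM-normalised CPM of the 6 helicase ring subunits in each library (points) with the group mean and SD (black bar beside the points, n = 3), in plasmid, vector, resistant and parental cells from left to right. All 6 subunits are higher in plasmid than in vector libraries, while in resistant libraries MCM5 and MCM6 are over 2-fold above the parental ones and MCM4 overlaps with them.

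The ring subunits are used in equal numbers in the complex, and their transcripts stood at unequal levels. Exon bases were pooled over all transcripts of a gene, 7338 for MCM5 against 3650 for MCM3. Levels per kilobase, and the ratios between subunits, therefore depend in part on this length. Per kilobase of exon, the highest and lowest subunits were MCM7 at 34.9 and MCM5 at 7.62 CPM in plasmid cells, against MCM3 at 22.5 and MCM5 at 4.30 CPM in vector cells, a ratio of 4.59 against 5.24. They were MCM7 at 35.9 and MCM5 at 5.24 CPM in resistant cells, against MCM7 at 25.6 and MCM5 at 2.21 CPM in parental cells, a ratio of 6.85 against 11.6. The range was thus narrower in resistant than in parental cells by these means, and no test was made of it. In the GINS complex the highest subunit, GINS1, stood 4.40-fold above the lowest in resistant cells, against 10.6-fold in parental cells, with GINS1 lower and GINS2 higher in the resistant line. The 3 other complexes compared changed less, with a ratio in resistant against parental cells of 2.49 against 2.52 for RFC, 5.39 against 5.69 for RPA and 4.62 against 4.28 for polymerase alpha and primase.

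All 6 genes of helicase activation rose with the plasmid (36.5% of all genes were called higher), with a median log2 fold change of 0.64. MCM10, which helps the loaded ring to unwind DNA and recruits polymerase alpha, had 26.1, 27.3 and 27.1 CPM in the plasmid libraries, against 10.8, 9.74 and 9.79 CPM in the vector libraries. The groups lay apart, with a log2 fold change of 1.41 ± 0.059 (adjusted p = 1.13e-12), the second largest of all members. GINS1, CDC45, GINS2, GINS3 and GINS4, which complete the active helicase, rose by 0.72, 0.64, 0.63, 0.60 and 0.32. The same 6 genes split in the resistant line. GINS2 had 5.86, 6.20 and 5.98 CPM in the resistant libraries, against 3.17, 2.56 and 3.31 CPM in the parental libraries, a rise of 0.99 ± 0.16 (adjusted p = 3.37e-05) at a low level. MCM10 had 10.0, 12.2 and 11.2 CPM in the resistant libraries, against 13.9, 14.9 and 14.7 CPM in the parental libraries, a fall of the group without overlap (-0.38 ± 0.097, adjusted p = 0.00342) that was not called with library sizes alone (-0.21, adjusted p = 0.0764), and GINS1 also fell (-0.36 ± 0.069, adjusted p = 0.000276). GINS3 and GINS4 were not called. CDC45 was higher (0.21 ± 0.084, adjusted p = 0.0449), and this call was lost without resistant replicate 2 or 3 or parental library a or c (adjusted p = 0.073, 0.116, 0.0776 and 0.245), at 0.13 in the last case.

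PCNA, the clamp that holds polymerases on DNA and the most abundant of the 50 transcripts per kilobase in all 4 groups, rose in both experiments. It had 193, 189 and 187 CPM in the plasmid libraries, against 138, 142 and 142 CPM in the vector libraries (log2 fold change 0.43 ± 0.028, adjusted p = 3.75e-10). It had 157, 145 and 134 CPM in the resistant libraries, against 86.2, 90.1 and 86.5 CPM in the parental libraries (log2 fold change 0.73 ± 0.055, adjusted p = 5.4e-09). Neither pair of groups overlapped, and the resistant libraries spread more than the others. Of the RFC loader, RFC2 rose most with the plasmid, with 51.5, 54.1 and 52.0 CPM in the plasmid libraries, against 24.3, 26.1 and 26.0 CPM in the vector libraries (log2 fold change 1.04 ± 0.042, adjusted p = 7.08e-13). RFC1, RFC5 and RFC3 rose by 0.53, 0.51 and 0.37, as did DSCC1, a subunit of an alternative clamp loader, by 0.55. RFC4 was the exception, at 0.08 ± 0.044 (adjusted p = 0.119). RFC4 in the resistant line was instead the loader subunit that rose, at 0.46 ± 0.074 (adjusted p = 4.57e-05), beside DSCC1 at 0.49 ± 0.10 (adjusted p = 0.00072). RFC1, RFC2, RFC3 and RFC5 were not called there, with RFC2 at 0.16 ± 0.070. RFC2 was called higher without resistant replicate 3 or parental library a (adjusted p = 0.0428 and 0.0363). It was also called with library sizes alone (0.33, adjusted p = 0.000585), the 1 CPM filter (adjusted p = 0.0355) and 1 fit of all 12 libraries (adjusted p = 0.0142). RFC5 was called lower without resistant replicate 1 or parental library c (adjusted p = 0.0379 and 0.0247). The same held with every gene with a count kept (adjusted p = 0.0448) and in 1 fit of all 12 libraries (adjusted p = 0.0247).

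All 9 polymerase and primase subunits rose with the plasmid (36.5% of all genes were called higher), by 0.18 to 1.25. POLD3, an accessory subunit of the lagging-strand polymerase delta, had 56.7, 56.2 and 55.0 CPM in the plasmid libraries, against 22.2, 24.2 and 23.8 CPM in the vector libraries (log2 fold change 1.25 ± 0.042, adjusted p = 5.31e-14). POLE, the catalytic subunit of the leading-strand polymerase epsilon, rose by 0.88 ± 0.029, POLE2 by 0.83 ± 0.072 and POLD1, the catalytic subunit of polymerase delta, by 0.62 ± 0.044. The primase subunits PRIM1 and PRIM2, which start each new strand with RNA, rose by 0.32 and 0.48, and POLA1 and POLA2 of polymerase alpha by 0.18 and 0.72. Without plasmid replicate 3 the value of PRIM1 was 0.21.

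The subunits of polymerase delta moved apart in the resistant line. POLD2, its second subunit, had 106, 99.9 and 96.5 CPM in the resistant libraries, against 52.6, 53.4 and 56.1 CPM in the parental libraries, a rise of 0.90 ± 0.053 (adjusted p = 1.83e-10). POLD3 had 34.8, 31.4 and 32.9 CPM in the resistant libraries, against 43.4, 45.9 and 44.7 CPM in the parental libraries, a fall of the resistant group without overlap (-0.44 ± 0.063, adjusted p = 1.51e-05). POLD1 was not called, at -0.14 ± 0.075 (adjusted p = 0.117). POLA2 had 5.47, 4.78 and 4.09 CPM in the resistant libraries, against 6.12, 6.66 and 6.84 CPM in the parental libraries (-0.45 ± 0.14, adjusted p = 0.0124), and this call was lost without resistant replicate 3 (adjusted p = 0.0619). PRIM2 fell as well (-0.34 ± 0.093, adjusted p = 0.00488), and POLA1, PRIM1, POLE and POLE2 were not called, between -0.06 and 0.11. The falls of POLA2 and PRIM2 were not called with library sizes alone, while that of POLD3 was. POLE was called higher with library sizes alone (0.17, adjusted p = 0.012).

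The RPA trimer, which coats unwound single strands, rose in both experiments in all 3 subunits, by 0.14 to 0.60. Of all genes tested in both, 7.11% were called higher in both. RPA2 had 49.0, 49.4 and 48.2 CPM in the plasmid libraries, against 33.8, 32.5 and 30.9 CPM in the vector libraries (log2 fold change 0.60 ± 0.041, adjusted p = 9.38e-10). RPA3 had 18.2, 15.6 and 16.9 CPM in the resistant libraries, against 13.1, 12.2 and 11.8 CPM in the parental libraries (log2 fold change 0.45 ± 0.092, adjusted p = 0.00045). The groups did not overlap in either case. RPA1 changed by 0.24 ± 0.032 with the plasmid and by 0.14 ± 0.055 in the resistant line. The plasmid call of RPA3, at 0.18 ± 0.064 (adjusted p = 0.0167), was lost without plasmid replicate 1 or vector replicate 1 (adjusted p = 0.0638 and 0.0576). It was also lost with library sizes alone (adjusted p = 0.0526), DESeq2 (adjusted p = 0.0748) and 1 fit of all 12 libraries (adjusted p = 0.0682). The resistance call of RPA1 (adjusted p = 0.0443) was lost without resistant replicate 1 or 2 or any 1 parental library, with an adjusted p of up to 0.178. With every gene with a count kept it was lost as well (adjusted p = 0.0667).

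FEN1 and LIG1, which trim and join Okazaki fragments, both rose with the plasmid, and in the resistant line LIG1 was higher and FEN1 lower. FEN1, the flap endonuclease, had 125, 123 and 121 CPM in the plasmid libraries, against 63.4, 63.9 and 64.4 CPM in the vector libraries (log2 fold change 0.95 ± 0.030, adjusted p = 2.96e-14). LIG1, the ligase that seals the nicks, had 65.8 ± 2.63 CPM in the plasmid libraries, against 37.5 ± 0.472 CPM in the vector libraries (SD, n = 3 each), a rise of 0.81 ± 0.038. In the other experiment LIG1 had 34.4, 33.9 and 32.5 CPM in the resistant libraries, against 17.1, 16.2 and 14.4 CPM in the parental libraries (log2 fold change 1.08 ± 0.079, adjusted p = 3.4e-09). FEN1 had 76.0, 71.7 and 70.9 CPM in the resistant libraries, against 89.7, 86.0 and 89.4 CPM in the parental libraries, a fall of -0.28 ± 0.049 as a log2 fold change (adjusted p = 0.00012). The fall of FEN1 was not called with library sizes alone (-0.12, adjusted p = 0.0533). None of these 4 pairs of groups overlapped. RNASEH2A was almost absent from the counts of every library, at 0.359, 0.363 and 0.255 CPM in the plasmid libraries, against 0.114, 0.139 and 0.0296 CPM in the vector libraries, and at most 0.224 CPM in the second experiment. Of its exon bases, 30.8% also belong to THSD8 in GENCODE 29, so its level is uncertain.

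Among the nucleotide supply genes, RRM2, RRM1 and TK1 rose with the plasmid and DUT fell. RRM2, the inducible subunit of ribonucleotide reductase, had 295, 290.3 and 298 CPM in the plasmid libraries, against 130.2, 135 and 133 CPM in the vector libraries (log2 fold change 1.15 ± 0.027, adjusted p = 4.95e-16). RRM1, its constant partner, rose by 0.35 ± 0.038, so the log2 ratio of RRM2 to RRM1 was 2.05 to 2.13 in plasmid libraries, against 1.24 to 1.33 in vector libraries. TK1, the salvage thymidine kinase, rose by 0.86 ± 0.036. DUT, which destroys dUTP before it can enter DNA, had 48.7, 49.2 and 47.1 CPM in the plasmid libraries, against 52.5, 53.8 and 53.3 CPM in the vector libraries, a slight fall of the plasmid group without overlap (-0.14 ± 0.035, adjusted p = 0.00191). TYMS, which makes thymidylate from the product of DUT, had 25.6, 28.5 and 25.6 CPM in the plasmid libraries, against 29.9, 27.8 and 27.0 CPM in the vector libraries, with overlapping groups (-0.09 ± 0.054, adjusted p = 0.157). TYMS was called lower without plasmid replicate 2 (-0.13, adjusted p = 0.0429).

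DUT and TYMS, the pair that did not rise with the plasmid, were among the largest rises of the resistant line. DUT had 58.7, 53.7 and 50.3 CPM in the resistant libraries, against 20.4, 26.1 and 23.3 CPM in the parental libraries (2.33-fold, log2 fold change 1.22 ± 0.084, adjusted p = 1.46e-09). TYMS had 14.0, 11.96 and 11.6 CPM in the resistant libraries, against 5.90, 5.94 and 5.81 CPM in the parental libraries (2.12-fold, log2 fold change 1.09 ± 0.11, adjusted p = 2.62e-07). For both, the lowest resistant library stood well above the highest parental one. TK1 also rose (0.38 ± 0.063, adjusted p = 6e-05), and RRM1 was not called (-0.07). RRM2 had 145, 144 and 145 CPM in the resistant libraries, against 140.0, 134 and 140.2 CPM in the parental libraries, separate but close groups that were not called (0.07 ± 0.042, adjusted p = 0.202). RRM2 was called higher with library sizes alone (0.23, adjusted p = 0.000158) and in 1 fit of all 12 libraries (0.0758, adjusted p = 0.0484). Of the exon bases of TYMS, 46.6% also belong to ENOSF1 on the other strand, whose own log2 fold change was 0.74 in the resistant line (adjusted p = 1.21e-08) and -0.01 with the plasmid. Reads of both genes cannot be told apart where counting ignored strand, and the part of ENOSF1 in the rise of TYMS was not tested.

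**Figure D3:**
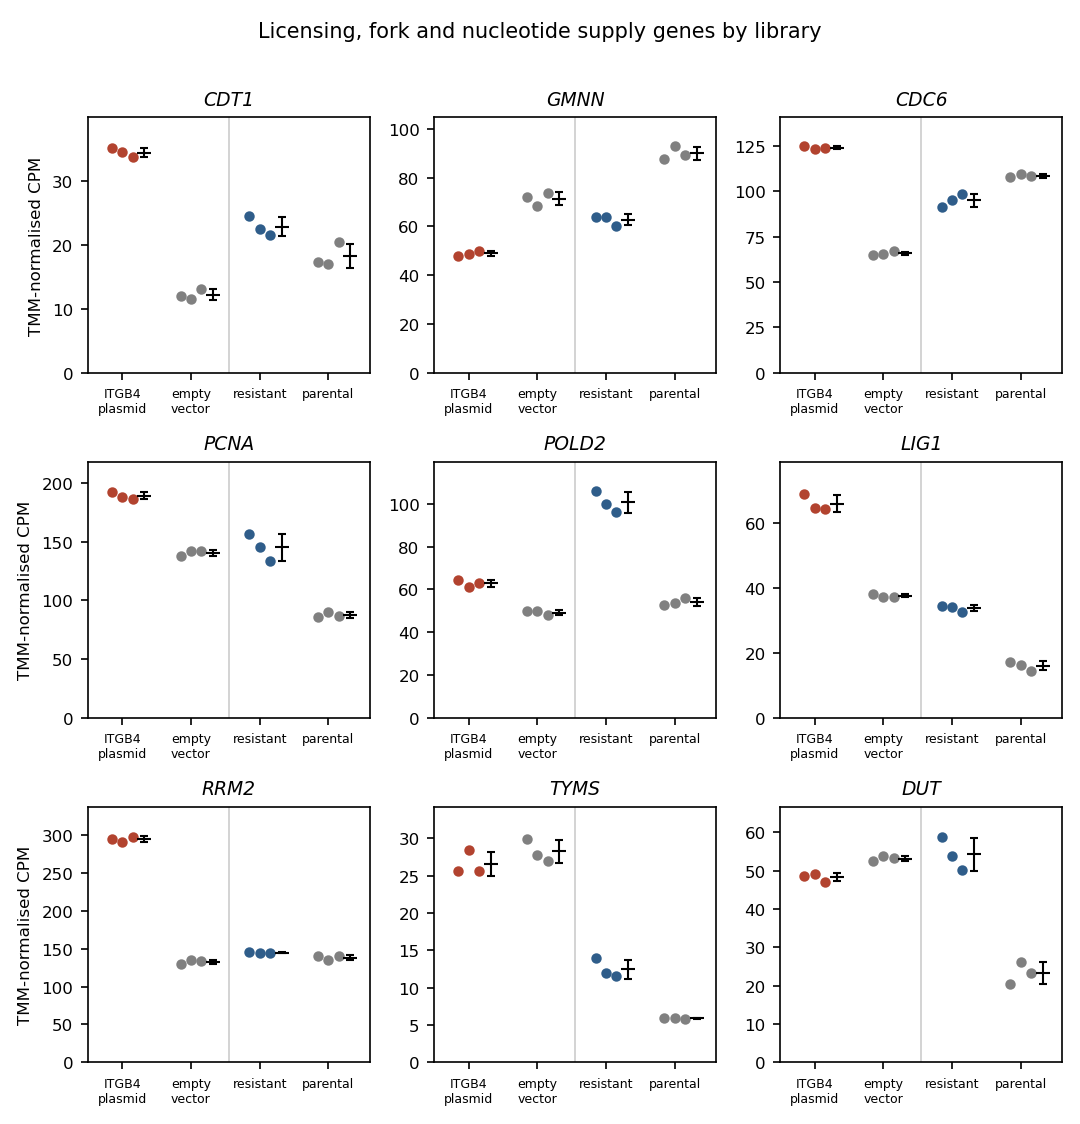
TMM-normalised CPM of 9 licensing, fork and nucleotide supply genes in each library (points), with the group mean and SD beside them (n = 3), in plasmid, vector, resistant and parental cells from left to right. CDT1, CDC6 and RRM2 separate most in plasmid against vector cells, and POLD2, LIG1, TYMS and DUT in resistant against parental cells, while GMNN is lower in both comparisons.

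The genes that rebuild chromatin behind the fork rose strongly with the plasmid, with a median log2 fold change of 1.06 over 4 genes. UHRF1, which reads hemimethylated DNA and recruits DNMT1, had 55.7, 52.6 and 53.6 CPM in the plasmid libraries, against 21.7, 22.2 and 22.1 CPM in the vector libraries (log2 fold change 1.29 ± 0.041, adjusted p = 2.66e-14). CHAF1B and CHAF1A, subunits of the chromatin assembly factor that deposits new histones, rose by 1.15 ± 0.055 and 0.97 ± 0.036. DNMT1, the maintenance DNA methyltransferase, rose by 0.50 ± 0.030. In the second experiment CHAF1A had 38.8, 37.7 and 38.3 CPM in the resistant libraries, against 45.2, 44.5 and 49.99 CPM in the parental libraries. This was a fall without overlap (-0.29 ± 0.063, adjusted p = 0.0009), and DNMT1 fell by a little (-0.19 ± 0.045, adjusted p = 0.00148). UHRF1 and CHAF1B were not called, at -0.18 and -0.14. UHRF1 was called lower without resistant replicate 2 (adjusted p = 0.0257) and in 1 fit of all 12 libraries (adjusted p = 0.0182). None of these 4 genes was called lower with library sizes alone.

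CLSPN, which carries the ATR signal from stalled forks to CHK1, rose with the plasmid, and TIMELESS, another fork protection factor, was not called there. CLSPN had 68.2, 66.4 and 62.8 CPM in the plasmid libraries, against 28.9, 26.3 and 25.7 CPM in the vector libraries (log2 fold change 1.29 ± 0.047, adjusted p = 1.86e-13). TIMELESS had 68.5 ± 0.845 CPM in the plasmid libraries, against 68.4 ± 1.27 CPM in the vector libraries (SD, n = 3 each), with overlapping groups (adjusted p = 0.983). In the second experiment CLSPN had 24.6, 28.3 and 30.0 CPM in the resistant libraries, against 30.4, 33.1 and 33.5 CPM in the parental libraries (-0.23 ± 0.079, adjusted p = 0.0226). TIMELESS was also slightly lower there (-0.14 ± 0.051, adjusted p = 0.0285). The call of CLSPN was lost without resistant replicate 1 (-0.14, adjusted p = 0.105) or parental library b or c (adjusted p = 0.0734 and 0.0837), and with library sizes alone (-0.06, adjusted p = 0.545). That of TIMELESS was lost without resistant replicate 2 or parental library b or c (adjusted p = 0.0843, 0.118 and 0.0837).

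Set side by side, 16 genes were called higher in both experiments (7.11% of the 15655 genes tested in both), GMNN was the gene called lower in both (7.72% of all), and 13 were called with opposite signs (30.0% of all). The 16 were CDT1, MCM2, MCM3, MCM5, MCM6, MCM7, CDC45, GINS2, PCNA, DSCC1, POLD2, RPA1, RPA2, RPA3, LIG1 and TK1. The 12 that were higher with the plasmid and lower in the resistant line (16.6% of all) were ORC1, ORC6, CDC6, MCM10, GINS1, POLA2, PRIM2, POLD3, FEN1, DNMT1, CHAF1A and CLSPN. DUT was the reverse, lower with the plasmid and higher in the resistant line (13.4% of all). With library sizes alone in both experiments, 6 genes were called with opposite signs, ORC1, ORC6, GINS1, POLD3, DUT and TYMS, and 19 were higher in both. With DESeq2 14 were higher in both, as the resistance call of CDC45 (adjusted p = 0.0503) and the plasmid call of RPA3 (adjusted p = 0.0748) were lost. With every gene with a count kept 15 were, as the resistance call of RPA1 was lost (adjusted p = 0.0667). The 1 CPM filter and 1 fit of all 12 libraries each gave 17.

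The difference between the changes, resistance minus plasmid, was tested in 1 fit of all 12 libraries. It was called for 41 of the 49 genes (61.8% of 18516 genes), of which 31 were more positive with the plasmid (30.2% of all genes) and 10 in the resistant line (31.6% of all genes). The largest differences toward the plasmid were those of ORC1 (-1.88 ± 0.084, adjusted p = 7e-14), MCM10 (-1.76 ± 0.11, adjusted p = 1.84e-11), POLD3 (-1.67 ± 0.073, adjusted p = 5.55e-14), CLSPN (-1.49 ± 0.095) and UHRF1 (-1.45 ± 0.082). The largest toward the resistant line were those of DUT (1.38 ± 0.097, adjusted p = 1.11e-10), TYMS (1.20 ± 0.11, adjusted p = 1.08e-08), MCM6 (0.83 ± 0.091, adjusted p = 9.84e-08), POLD2 (0.57 ± 0.064) and MCM5 (0.45 ± 0.076). Within the helicase ring, MCM4 differed toward the plasmid (-0.84 ± 0.050, adjusted p = 7.01e-12), while the difference of MCM2 was -0.07 ± 0.083 (adjusted p = 0.462). For GMNN the difference was 0.04 ± 0.063 (adjusted p = 0.565), which does not show that the changes were equal. The experiments also differ in medium, and this cannot be told apart from the plasmid, the resistant line and its cisplatin treatment in such a difference.

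**Figure D4:**
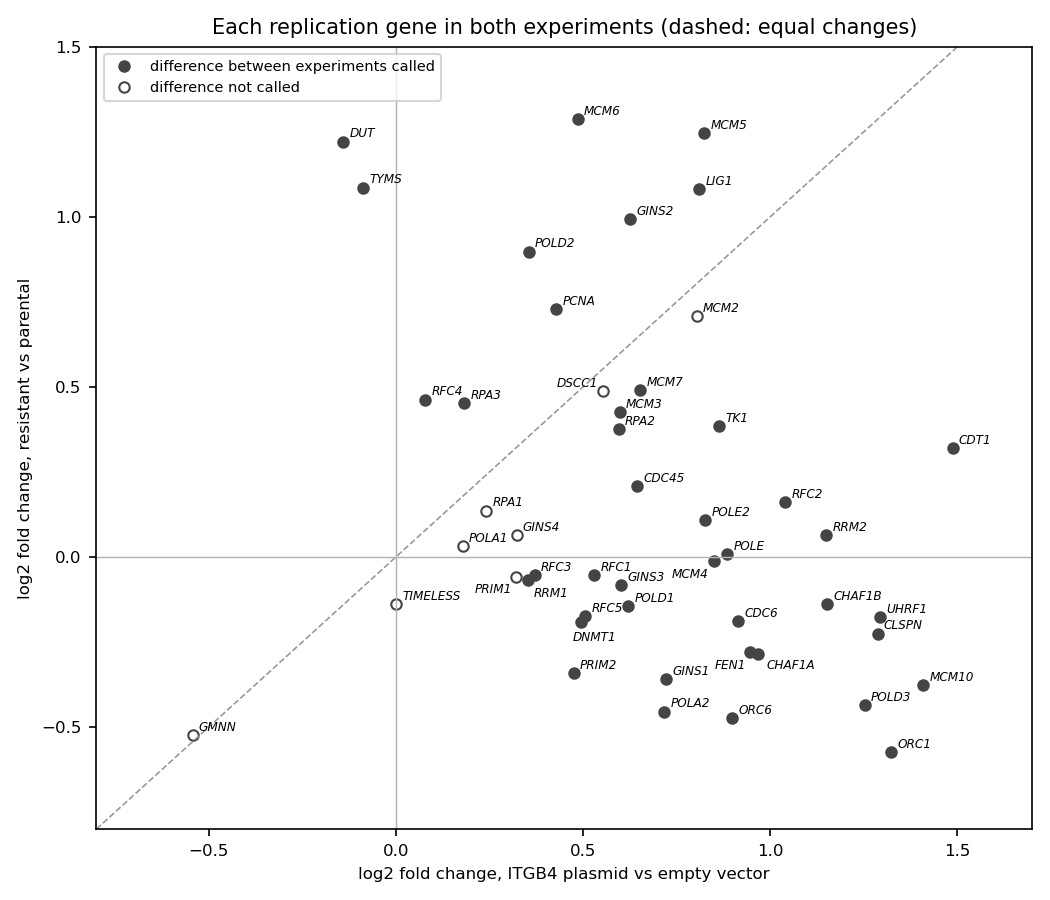
Log2 fold change of each of the 49 tested genes with the plasmid (horizontal) and in the resistant line (vertical), where the dashed line marks equal changes and filled points have a called difference between the experiments. DUT, TYMS, MCM6, MCM5, LIG1, GINS2 and POLD2 lie above the line, ORC1, ORC6 and POLA2 lie lowest among the genes right of 0, and GMNN is below 0 on both axes.

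Regulators upstream of these genes were read against all genes tested, of which 36.5% were higher and 35.7% lower with the plasmid, and 26.8% higher and 27.7% lower in the resistant line. With the plasmid, 6 of 13 E2F and pocket protein genes were higher and 3 lower, with the late repressor E2F8 at 1.72 ± 0.058, E2F2 at 1.68 ± 0.13 and E2F3 at 0.42 ± 0.035. In the resistant line 4 were higher and 5 lower, not far from those shares, with the activator E2F1 at 1.25 ± 0.12 and E2F8 and E2F2 at -0.64 ± 0.071 and -1.32 ± 0.15. Of 12 S-phase kinases, cyclins and initiation factors, 10 were higher and 1 lower with the plasmid, among them TICRR, which brings CDC45 to the ring (1.12 ± 0.032), the phosphatase CDC25A (1.04 ± 0.048) and cyclin E1, CCNE1 (1.14 ± 0.055). In the resistant line 2 were higher, CCNE1 (0.69 ± 0.10) and CCNE2 (1.03 ± 0.19), which act at the start of S phase, and 9 lower, among them CCNA2, the cyclin of S phase and G2 (-1.51 ± 0.058), TICRR (-1.21 ± 0.055) and DBF4, the activator of the CDC7 kinase (-0.97 ± 0.058).

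Mitotic genes, most of which are expressed after replication, were lower more often than higher in both experiments. With the plasmid, 7 of 25 were higher (36.5% of all genes) and 14 lower (35.7% of all genes). Their sum was 1391 to 1414 CPM in the plasmid libraries, against 1641 to 1660 CPM in the vector libraries, with KIF20A at -1.47 ± 0.039, CENPF at -0.83 ± 0.035 and CCNB2 at -0.72 ± 0.034. In the resistant line all 24 tested were lower (27.7% of all genes), with AURKA at -2.16 ± 0.050, CDC20 at -2.20 ± 0.051 and PLK1 at -2.06 ± 0.060. The sum was 757 to 796 CPM in the resistant libraries, against 2329 to 2346 CPM in the parental libraries. The sum over the replication genes was 2198 to 2269 CPM in the resistant libraries, against 2010 to 2035 CPM in the parental libraries. The part of a shift in cell cycle phases in these levels was not tested.

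**Figure D5:**
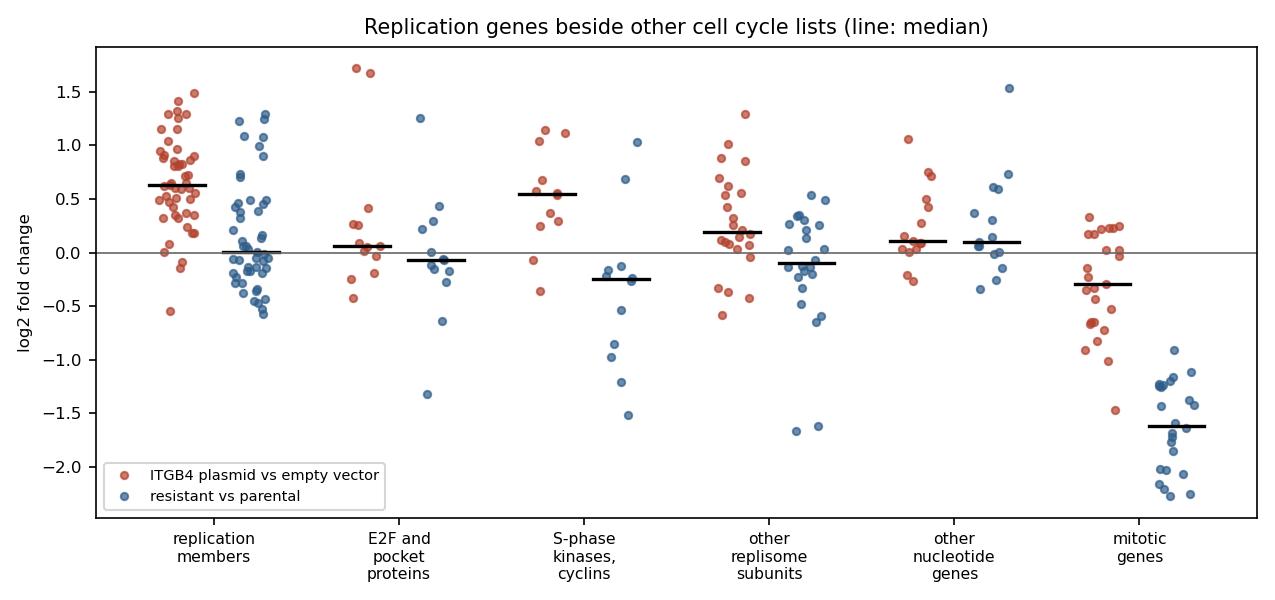
Log2 fold changes of the tested genes of 6 lists, with plasmid over vector in red on the left of each pair and resistant over parental in blue on the right, and the median as a black line. The replication genes lie mostly above 0 with the plasmid (median 0.63) and around 0 in the resistant line (median 0.01), where the mitotic genes have a median of -1.61.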

How the data were processed

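RNA of RT4 cells was sequenced in 12 libraries, 3 per group, from libraries made with a strand-marking kit, per the labels' protocols. The authors deposited unnormalised read counts of each gene, in 1 table per experiment. Per the file headers, read pairs of the overexpression libraries were counted over exons with featureCounts 2.0.1 against Ensembl release 107 of GRCh38 with no strand option, so overlapping and antisense genes cannot be told apart. The header's file names point to HISAT, with no version. For the resistance table no source used here gives the aligner, counter, annotation or strand setting. The submitters' processing notes name hg38. Columns headed NC with a number in that table were read as parental, since all vector controls are in the other table, and no label ties those numbers to samples.

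Symbols were found for 61757 of 61860 and 62700 of 62700 identifiers. Each experiment was tested by itself with the quasi-likelihood test of edgeR 4.0.16 (R 4.3.3) on genes that passed filterByExpr, with TMM factors and Benjamini-Hochberg adjustment. The difference between experiments came from 1 fit of all 12 libraries, and glmTreat tested for changes past 1.5-fold. The procedure was tested on simulated data. The approximate standard error is the size of the log2 fold change divided by the square root of F. The common biological coefficient of variation was 2.65% and 6.97%. Replicates of a group all differed by more than sampling noise (chi-square per degree of freedom 1.54 to 12.2). Positions and exon lengths are those of GENCODE 29, exon bases were pooled over transcripts, and promoters come from RefSeq (GRCh38.p14).

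The members and lists were chosen with earlier results of these data known. All members are accounted for by role. Values of every library are given for the largest called rise and fall of each role (the most abundant gene where none was called), the 5 largest called rises and falls, MCM2 to MCM7, PCNA, RRM2, CDC6, CDT1 and GMNN. Members called in both experiments with opposite signs and the 5 largest called differences in each direction are named, and up to 3 called genes of smallest p per other list. Promoters are those of the 3 largest called rises in each experiment, where listed. Named pseudogenes of the members held at most 0.47% of the member's counts. Of 7 members, at least 20% of the exon bases are shared with another gene. Alternatives were other scalings, other low-count filters, DESeq2 1.42.0, 1 fit of all libraries, a replicate block and leaving out each library.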

Additional observations from a re-analysis of the deposited data

How the results depend on the processing

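With the plasmid, 45 of 49 genes kept their direction and side of the threshold under every alternative run, in the resistant line 23, and for the difference between experiments 36. Leaving out 1 library at a time gave 45 to 47 called genes with the plasmid, 30 to 32 in the resistant line and 37 to 41 for the difference, and medians of 0.60 to 0.67 with the plasmid and -0.0171 to 0.0447 in the resistant line. The count of lower genes with the plasmid was 1 in 1 fit of all 12 libraries, where DUT was not called. With library sizes alone the resistant line had 5 lower genes and a median of 0.17, where the median of all genes also moved, to 0.18. With every gene with a count kept, its median was -0.0012. Replicate numbers are shared by plasmid and vector libraries, but deviations of same-numbered libraries did not go together (correlations -0.04, -0.09 and 0.03 over 10803 genes), and with the number as a block 44 genes were higher and 2 lower, with a median of 0.63. Plasmid libraries 1 and 2 correlated best with another number. No paired analysis was possible in the resistance experiment because the parental columns carry no number tied to a sample.

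TIMELESS changed sign with the plasmid at -0.0042 (RLE size factors and DESeq2), -0.039 (library sizes), -0.0083 (every gene with a count), -0.0173 (1 CPM filter) and -0.0127 (1 fit), and lay between -0.0167 and 0.0139 without 1 library. In the resistant line library sizes turned MCM4 to 0.15, GINS3 to 0.0806, RFC1 to 0.11, RFC3 to 0.11, PRIM1 to 0.11, POLD1 to 0.0211, RRM1 to 0.0966, CHAF1B to 0.0251 and TIMELESS to 0.0258, and the 1 CPM filter turned MCM4 to 0.0012. Without 1 library MCM4 lay between -0.0349 and 0.0036, POLA1 between -0.0237 and 0.0929, POLE between -0.0303 and 0.0447, POLE2 between -0.0185 and 0.22 and PRIM1 between -0.18 and 0.0154. Library sizes turned the difference between experiments to 0.11 for MCM2, 0.0295 for MCM3, 0.0392 for MCM7, 0.14 for DSCC1, 0.057 for POLA1, 0.0978 for RPA1 and 0.0637 for TIMELESS. The called differences of MCM3, MCM7, RPA2, RPA3 and GINS2 were lost under several alternatives. Apart from the shift of all genes with library sizes, the cause was not tested.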

Other observations

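Over all genes tested, 36.5% were higher and 35.7% lower with the plasmid, and 26.8% higher and 27.7% lower in the resistant line. Other subunits of origins and forks, a list of 24 genes beside the 50, were higher in 15 cases and lower in 3 with the plasmid, and higher in 7 and lower in 10 in the resistant line. With the plasmid the 3 called genes of smallest p were ATAD5, which unloads the clamp, at 1.29 ± 0.050, the origin recognition subunit ORC3 at 0.70 ± 0.036 and MCMBP, which binds the helicase ring, at 0.53 ± 0.030. In the resistant line they were TOP2A, the topoisomerase that untangles replicated DNA, at -1.62 ± 0.049, the checkpoint kinase CHEK1 at -0.65 ± 0.073 and the histone chaperone subunit SSRP1 at 0.34 ± 0.040. RNASEH2B, the partner of RNASEH2A and chosen after its values were seen, had a log2 fold change of -0.42 ± 0.049 with the plasmid and 0.54 ± 0.073 in the resistant line.

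Of 15 other nucleotide metabolism genes, 7 were higher and 2 lower in each experiment. With the plasmid the called genes of smallest p were SAMHD1, a dNTP hydrolase, at 0.75 ± 0.024, CTPS1, which makes CTP, at 0.50 ± 0.030 and MTHFD1 of the folate cycle at 0.43 ± 0.027. In the resistant line they were RRM2B, the damage-inducible alternative to RRM2, at 1.53 ± 0.071, CAD, which starts pyrimidine synthesis, at 0.59 ± 0.051 and NME1, a nucleoside diphosphate kinase, at 0.73 ± 0.083. RRM2B had 56.4, 56.5 and 61.7 CPM in the resistant libraries, against 18.5, 21.2 and 20.8 CPM in the parental libraries, while it was not called with the plasmid, at 0.11 ± 0.051 (adjusted p = 0.0732).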
